A study of Mus musculus with 10 samples.

Results

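The 9 genes studied belong to the junctions between Sertoli cells, the blood-testis barrier, and were followed through 10 RNA-seq samples of mouse sperm and testes: Cldn11, Cldn3, Ocln, Tjp1, F11r, Jam3, Gja1, Cdh2 and Ctnnb1. A member was every listed transcript with a RefSeq mRNA identifier (NM_) whose gene identifier was 1 of these 9 symbols, and its expected count and FPKM were summed by symbol. Of the 9 genes, 8 were listed in at least 1 sample, among 16082 genes with NM_ transcripts in the whole series. Ocln was listed in none. The samples were 4 of control sperm, 2 of cadmium sperm, 2 of control testes and 2 of cadmium testes, all labelled as from C57BL/6 mice of 3 to 5 months. For the controls the study's methods instead give C57BL/6J and a younger age range, in weeks. The cadmium mice had 1 intraperitoneal injection of CdCl2 at 3 mg/kg and the controls had saline, and both were killed 35 days later. Sperm of the caudal epididymis and vas deferens was pooled over several mice and freed of somatic cells by lysis, while testes were taken as whole tissue. A testes sample holds all testicular cells, so that fewer Sertoli cells and less RNA per Sertoli cell cannot be told apart. The study calls the 2 control testes samples biological replicates and took the control testes from the mice that gave the control sperm, which the tests between these tissues treat as independent. For the cadmium mice the sources used here say neither. The p-values measure only the spread between samples, which may be technical where samples share mice.

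The blood-testis barrier is formed by neighbouring Sertoli cells near the base of the seminiferous epithelium and separates meiotic and later germ cells from the blood. It joins tight junctions, gap junctions, desmosomes and an adherens-type junction called the basal ectoplasmic specialization, and it opens and reforms as germ cells move inward. Claudins and occludin seal the space between the cells, junctional adhesion molecules sit beside them, and Tjp1 ties them to actin. Cadmium is known to damage this barrier in rodents, so the question was whether the RNA of its components differed between cadmium and control mice, and between whole testes and sperm, which have left the barrier.

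The total of expected counts was 366455 to 1058017 in control sperm, 1155491 to 1254477 in cadmium sperm and 2606086 to 2866856 in testes of both treatments, of which NM_ transcripts took 9.14 to 13.6%. A gene needed 3 counts to be told from 0, which is 1.05 to 1.15 counts per 1000000 (CPM, out of all expected counts of a sample) in testes and 2.39 to 8.19 CPM in sperm. The first control sperm pool, which the authors left out, is shown in the values per sample but not in the means and main tests.

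Cldn3 was the only member with more than 27 counts in any sample. Cldn3 made up 96.2 to 97.1% of the counts of the 9 genes in testes and 98.7 to 99.7% in sperm. Cldn3 and Tjp1 were counted in every sample. Ctnnb1 was counted in all testes samples and in 4 of 6 sperm samples, Gja1 and Cdh2 in testes samples only, and Jam3 in testes and in 1 sperm sample with a single count. Cldn11 was counted in control testes only, and F11r had 1 count in each of 2 testes samples. The expected counts of the members were whole numbers in every sample, whereas 29.3 to 40.3% of all listed values were not.

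**Figure D1:**
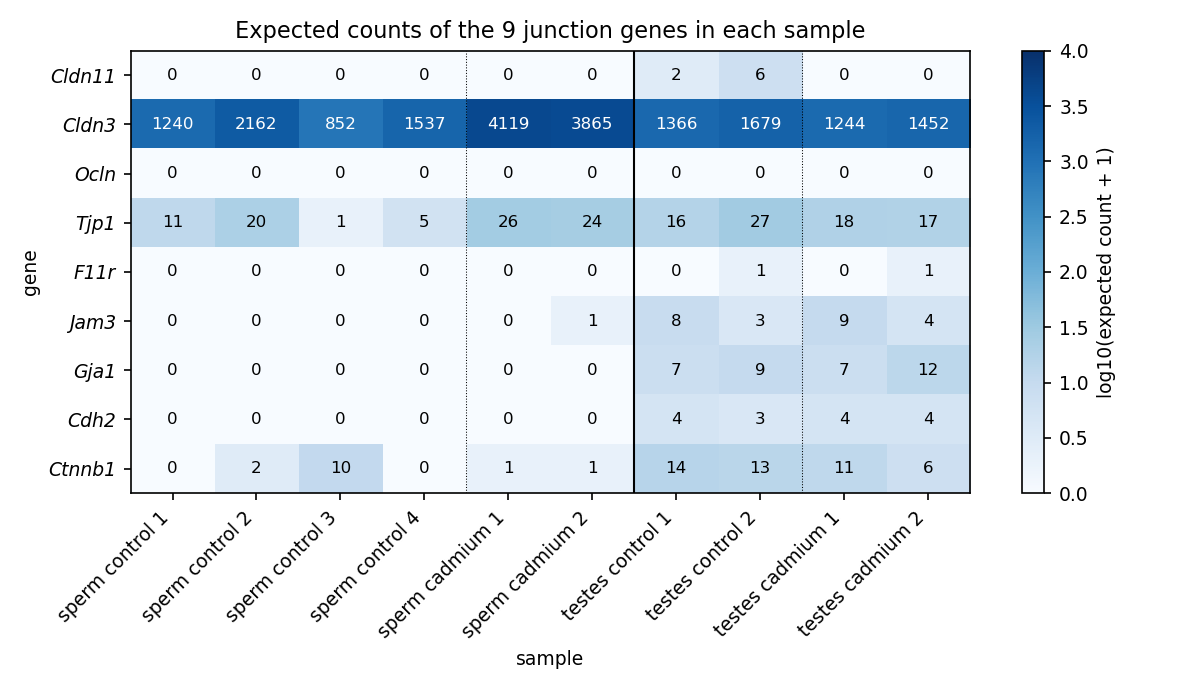
Expected counts of the 9 junction genes (rows) in the 10 samples (columns), with the count printed in each cell and the shade giving log10(expected count + 1). Cldn3 holds 852 to 4119 counts in every sample, while no other gene exceeds 27 and Ocln is at 0 throughout.

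Among the claudins, Cldn11 is the claudin of Sertoli cell tight junctions and Cldn3 is another one, found at newly assembled barrier contacts. Cldn11 lies at chr3:31149920-31164326 and Cldn3 at chr5:134986214-134987476 (RefSeq, GRCm38.p6). The 250 bases before the start of each are shown because one of these claudins was near the limit of detection and the other was among the highest genes, with a GC box (GGGCGG on either strand) in capitals. Both lie on the plus strand and are credited to RefSeq.
Cldn11, chr3:31149670-31149919: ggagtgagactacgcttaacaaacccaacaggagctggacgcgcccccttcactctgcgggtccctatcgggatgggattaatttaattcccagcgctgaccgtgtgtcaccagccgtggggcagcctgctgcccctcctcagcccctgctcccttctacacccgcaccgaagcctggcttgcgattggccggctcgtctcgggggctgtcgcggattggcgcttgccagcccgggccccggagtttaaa
Cldn3, chr5:134985964-134986213: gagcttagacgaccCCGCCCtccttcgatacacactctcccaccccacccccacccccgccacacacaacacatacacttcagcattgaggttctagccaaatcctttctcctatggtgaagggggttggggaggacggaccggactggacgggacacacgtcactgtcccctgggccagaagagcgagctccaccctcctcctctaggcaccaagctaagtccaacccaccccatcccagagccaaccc
The Cldn3 window held 1 GC box, 236 bases before the start, and 1 CRE core (TGACG on either strand), 91 bases before it. The Cldn11 window held neither, and had 2 CCAAT boxes (either strand) at 66 and 35 bases, of which Cldn3 had 0. Of 32851 RefSeq promoter windows of this length, 32.74% held a GC box, 17.77% a CRE core and 33.85% a CCAAT box.

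Control testes had 1366 and 1679 counts of Cldn3, which is 476 and 644 CPM. Cadmium testes had 1244 and 1452 counts, which is 437 and 536 CPM, and the means were 560 ± 119 CPM (SD, n = 2) and 487 ± 69.8 CPM (SD, n = 2). The 2 groups of testes overlapped. In control sperm, pools 1 to 4, the counts were 1240, 2162, 852 and 1537, which is 2920, 2043, 2325 and 3024 CPM. In cadmium sperm they were 4119 and 3865, or 3565 and 3081 CPM. The means were 2464 ± 505 CPM (SD, n = 3, without the first pool) and 3323 ± 342 CPM (SD, n = 2). Every sperm sample lay above every testes sample, and by CPM the cadmium sperm pools lay above all 4 control pools. How many of all genes separated in these ways was not counted. As a share of NM_ counts the sperm groups overlapped, at 2.62 and 2.94% in the cadmium pools and 2.16 to 2.93% in the control pools. By FPKM, which divides by transcript length, Cldn3 ranked 2 to 4 among NM_ genes in sperm and 5 to 8 in testes, and it took 2.16 to 2.94% of the NM_ counts of a sperm sample against 0.388 to 0.534% in testes. The only Cldn3 transcript is NM_009902 of 1263 nucleotides, so these values do not rest on dividing counts between isoforms.

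The neighbours of Cldn3 on chromosome 5 did not reach such counts. Cldn13 and Cldn4, claudin genes upstream of it, had 0 to 27 and 0 to 3 counts per sample. By FPKM, Cldn13 shared the direction of Cldn3 in 5 of 6 sperm samples, with 13.9 to 48.1 FPKM there, 0 in the first control pool and 1.81 to 3.77 FPKM in testes, which was not tested. These neighbours were chosen after the values were seen. At its 3' end Cldn3 overlaps the annotated lncRNA Wbscr25 over 44 bases, and that name was listed in no sample.

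Cldn11 had 2 and 6 counts in control testes, or 0.698 and 2.30 CPM, and 0 in both cadmium testes samples. It was also at 0 in all 6 sperm samples. The 8 counts of the 2 control testes samples together gave 1.46 CPM, with an exact 95% Poisson interval of 0.631 to 2.88 CPM, while 0 counts in cadmium testes allow up to 0.540 CPM (3 counts over both samples). Such intervals cover counting error only. The interval for 0 counts in cadmium testes reaches 0.664 CPM, so the 2 intervals overlap, which is no test of a difference. Of the 8 counts, 6 were in the second control sample, and the 2 of the first were under its floor of 3 counts, so no fold was drawn. Cldn11 did not pass the filter on low values, and with no filter its unadjusted p in edgeR was 0.0112, with an adjusted p of 1.00. In sperm the 0 counts allowed 1.55 CPM in the 3 control pools and 1.24 CPM in the cadmium pools, so the 1.46 CPM of control testes was under what the control sperm pools could miss.

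Tjp1 encodes ZO-1, the scaffold under tight junctions, and lies at chr7:65296165-65527850. Control testes had 16 and 27 counts (5.58 and 10.4 CPM) of it, and cadmium testes 18 and 17 (6.33 and 6.27 CPM). Control sperm pools 1 to 4 had 11, 20, 1 and 5 counts, or 25.9, 18.9, 2.73 and 9.84 CPM, and cadmium sperm had 26 and 24, or 22.5 and 19.1 CPM. The testes groups overlapped, and control sperm spread over both sides of the testes values, whereas both cadmium sperm pools lay above all testes samples. All counts fell on NM_001163574, 1 of the 2 NM_ transcripts of Tjp1 in RefSeq.

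**Figure D2:**
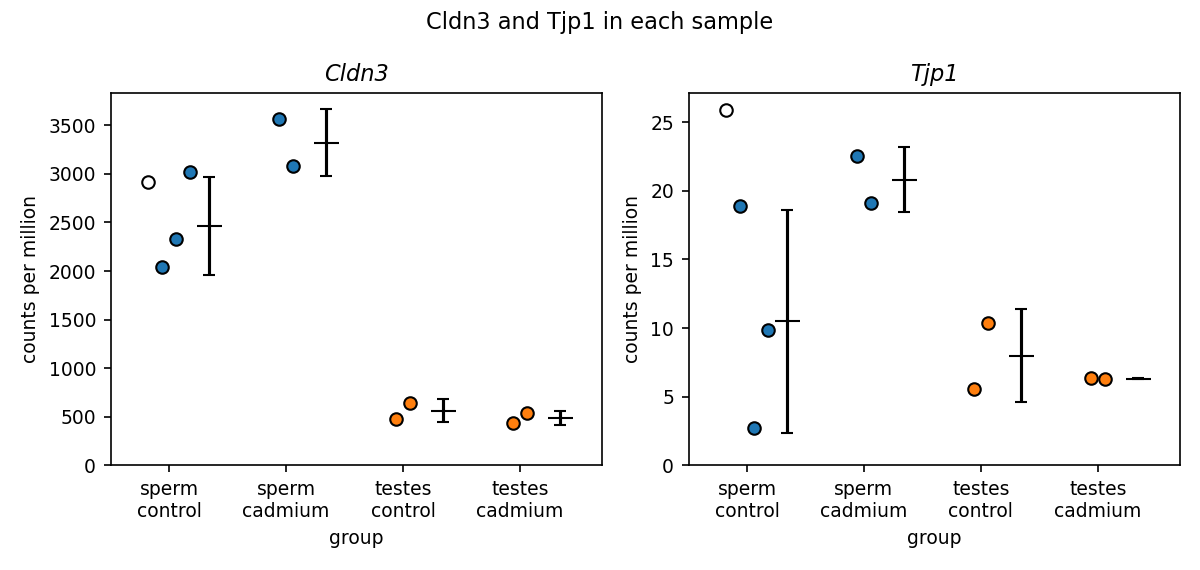
Levels in CPM of Cldn3 (left) and Tjp1 (right) in each sample by group, with sperm in blue, testes in orange, the first control sperm pool as an open circle, and the mean and SD of the other samples as bar and whiskers. Cldn3 stands at 2043 CPM or more in all sperm samples and at 644 CPM or less in all testes samples, while Tjp1 in control sperm ranges from 2.73 to 25.9 CPM.

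The other tight junction members were near the limit of detection. Jam3, a junctional adhesion molecule at chr9:27097384-27155421, had 8 and 3 counts in the control group of testes and 9 and 4 in the cadmium group. In sperm it had 1 count, in the second cadmium pool. F11r, which encodes JAM-A and lies at chr1:171437561-171464593, had 1 count in the second sample of each testes group and 0 elsewhere. Ocln, the gene of occludin at chr13:100496504-100552718, was listed nowhere, and its 0 allows up to 0.548 CPM in control testes and 0.540 CPM in cadmium testes. At this depth the tight junction genes other than Cldn3 and Tjp1 could not be followed in sperm.

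Gja1 encodes connexin 43, the main gap junction protein between Sertoli and germ cells, and lies at chr10:56377300-56390419. Its counts were 7 and 9 in untreated testes, 7 and 12 after cadmium, and 0 in all 6 sperm samples. Cdh2, the gene of N-cadherin at chr18:16588877-16809246, had 4 and 3 counts in untreated testes, 4 and 4 after cadmium, and 0 in sperm. Cdh2 stayed between 1.15 and 1.48 CPM in all 4 testes samples. In cadmium mice the level of Gja1 in testes (19 counts) was 2.75 times a floor of 3 counts over the sperm group. This ratio takes the testes counts as exact, and it fell to 1.43 without the first sperm pool and 1.32 without the second. By exact 95% Poisson intervals, which cover counting error only, Gja1 was at 2.06 CPM or more in testes and 1.53 CPM or less in sperm. In controls (16 counts) the ratio was 1.88 and fell below 1, to 0.852, without the second sperm pool, so no difference could be given there. For Cdh2 the counts were too few for a ratio that stayed over 1 without 1 sperm pool.

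Ctnnb1 encodes beta-catenin, which links cadherins to the actin cytoskeleton and also carries Wnt signals, and lies at chr9:120933400-120960507. Control testes held 14 and 13 counts of it (4.88 and 4.99 CPM), and cadmium testes held 11 and 6 (3.87 and 2.21 CPM). Control and cadmium testes did not overlap, but the difference was not called (edgeR unadjusted p 0.356). How many of all genes failed to overlap between these groups was not counted. Control sperm pools 1 to 4 had 0, 2, 10 and 0 counts, and cadmium sperm had 1 and 1. The third control pool alone held 10 of the 12 control counts. All counts were on NM_007614 except the 1 count of the first cadmium sperm pool, which was on NM_001165902.

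Per length, the order of the members in control testes was Cldn3 with 460 ± 98.6 FPKM (SD, n = 2), Ctnnb1 with 1.375 ± 0.0212 FPKM, Tjp1 with 1.16 ± 0.495 FPKM, Jam3 with 1.025 ± 0.601 FPKM, Gja1 with 0.960 ± 0.240 FPKM, Cldn11 with 0.820 ± 0.622 FPKM, Cdh2 with 0.265 ± 0.0354 FPKM and F11r with 0.0800 FPKM. From Ctnnb1 to Cldn11 each neighbouring pair overlapped between the samples, whereas Cldn3 lay above and Cdh2 below all 5 without overlap. In cadmium testes the order was Cldn3 (400 ± 58.0 FPKM), Jam3 (1.205 ± 0.615 FPKM), Gja1 (1.12 ± 0.453 FPKM), Tjp1 (0.915 ± 0.00707 FPKM), Ctnnb1 (0.850 ± 0.325 FPKM), Cdh2 (0.300 ± 0.0141 FPKM) and F11r (0.0750 FPKM), with Cldn11 at 0.

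The defining markers of Sertoli cells, which build these junctions, were themselves sparse in the testes. Of 16 Sertoli markers, 14 were listed in control and 13 in cadmium testes, with a summed level of 46.8 to 57.2 CPM and 51.6 to 69.2 CPM. Dhh carried most of this with 93 to 114 counts, whereas Amh had 2 to 3, Sox9 0 to 1 and Fshr none. Dhh was at a mean of 39.5 CPM in cadmium and 37.5 CPM in control testes. Defb19, named after its values were seen, was at 8.48 CPM in cadmium and 0.750 CPM in control testes. Its samples overlapped and it was not called (edgeR unadjusted p 0.00933). In sperm the summed Sertoli level was 0 to 14.2 CPM in controls and 6.06 to 10.6 CPM in cadmium pools. Epididymal epithelium markers summed to 8.51 to 27.3 CPM in sperm and 11.9 to 30.3 CPM in testes. Of the 9 endothelial markers, cells that cadmium is known to injure in the testis, 4 were listed nowhere, and the summed level was at most 1.04 CPM in the samples tested. The part of these cells in the members' values was not tested.

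The counts of other NM_ genes give a scale for these values. Actb, a cytoskeletal actin of most cells, had 16.1 to 22 counts in the testes and Prm1, a protamine of sperm chromatin, had 0 to 10 counts in sperm against 116 to 128 in testes. By CPM, Prm1 was at 0 to 14.1 in control sperm and 42.9 to 44.5 in control testes. Prm2, another protamine, was not lower in sperm. It was at 106 to 256 CPM in control sperm and 84.4 to 162 CPM in control testes, and at 207 to 232 CPM in cadmium sperm and 96.7 to 143 CPM in cadmium testes. The NM_ gene with the most FPKM in sperm was Abi3, at 2609 to 4127 FPKM in control pools. Ndufa13, on the minus strand with 2447 to 3358 counts in testes, overlaps the spermatid kinase gene Tssk6, on the plus strand with 24 to 37 counts, over 375 bases. Of the 20 highest NM_ genes of a sample, 60 to 90% overlapped another RefSeq gene, against 45.69% of 15320 NM_ genes. Overlap was counted without regard to strand, and many of these genes recur between samples. Tnfrsf13c, among the 20 highest in every sperm sample, overlapped no other gene. The part of overlap in these levels was not tested. The libraries were strand-specific, but the sources used here do not state whether the counting kept the strand. RNA from the opposite strand of a member and RNA of the member itself cannot be told apart in these values, Cldn3 included.

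No member passed the test between cadmium and control testes. A gene was tested if it reached 1 FPKM in at least 2 samples of a comparison, with edgeR's quasi-likelihood test, and called when the p adjusted by Benjamini-Hochberg was under 0.05 and the levels differed by over 2-fold. Of the 9 members, 4 were tested and 0 called, against 0.0225% of all 26724 genes (6 genes), and 226 of all genes had an unadjusted p under 0.05. The log2 fold change, cadmium over control, was -0.15 for Cldn3 (SE 0.54), -0.65 for Ctnnb1 (SE 0.69), 0.31 for Gja1 (SE 0.76) and 0.30 for Jam3 (SE 0.85), each with an edgeR adjusted p of 1.00. None of the 4 had an unadjusted p under 0.05, and none was called by DESeq2 or limma. The median over all genes was 0.02. Each of the 4 log2 fold changes was smaller than its SE. Those of Ctnnb1, Gja1 and Jam3 rest on 3 to 14 counts per sample.

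In sperm, Cldn3 and Tjp1 were the members tested and 0 were called, against 0.0824% of 20640 genes (17 genes), with 1354 genes at an unadjusted p under 0.05. Cldn3 had a log2 fold change of 0.51 (SE 0.44), cadmium over control, with an edgeR adjusted p of 1.00. The median over all genes was close to this, at 0.43. Tjp1 had 0.86 (SE 1.31) with the same adjusted p. Neither had an unadjusted p under 0.05 or was called by DESeq2 or limma. By CPM both cadmium pools lay above the 3 control pools tested for each gene, but for Tjp1 the first control pool, with 25.9 CPM, lay above both. How many of all genes separated in this way was not counted, so the separation is no result about these members. By share of NM_ counts the 2 groups overlapped for each gene.

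The cadmium effect in sperm was set against that in testes in 1 model over the 9 samples. Of 5 members tested, 0 were called, against 0.0396% of 32814 genes (13 genes), and DESeq2 and limma also called 0 members. No member had an unadjusted p under 0.05, against 1236 of all genes. The difference was 0.61 (SE 0.63) for Cldn3 and 1.11 (SE 1.43) for Tjp1 on the log2 scale, with edgeR adjusted p of 1.00, beside a median of 0.35 over all genes. For Ctnnb1 it was -2.45 (SE 1.88), which included the 10 counts of the third control sperm pool.

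Sperm and testes differed in Cldn3. In control mice it was higher in sperm by 1.85 on the log2 scale (SE 0.48, edgeR adjusted p 0.00543), and the mean CPM was 4.40 times that of testes. Of 3 members tested, 1 was called, against 22% of 24432 genes called in either direction and 4.19% called higher. The median gene was at -1.24, lower in sperm. Tjp1 (0.28, SE 1.40, edgeR adjusted p 0.908) and Ctnnb1 (0.42, SE 1.55, edgeR adjusted p 0.877) did not pass. The Cldn3 call was lost without the second or the fourth control sperm pool, at 1.82 in both cases with edgeR adjusted p of 0.0767 and 0.174, while every sperm pool stayed above every testes sample.

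In cadmium mice, whose samples are separate from those of the controls, Cldn3 was again higher in sperm, by 2.97 on the log2 scale (SE 0.75, edgeR adjusted p 0.000575). Its mean CPM was 6.83 times that of testes, with the median gene at -0.29. Tjp1 was higher by 1.94 (SE 0.65, edgeR adjusted p 0.0121), with a mean of 20.8 ± 2.38 CPM (SD, n = 2) in sperm and 6.30 ± 0.0367 CPM (SD, n = 2) in testes. Both members tested were called, against 31.7% of 25780 genes in either direction and 16.3% called higher. This is no result about the members as a set, since those at or near 0 in sperm did not pass the filter. Tjp1 passed the filter only through its 2 sperm pools, and its call was lost with no filter (edgeR adjusted p 0.0701), with library totals alone (0.0603) and in limma (0.120 with a pseudocount of 1). It was also lost without the first or the second cadmium testes sample (edgeR adjusted p 0.226 and 0.0885), and without either sperm pool it was not tested. The Cldn3 call was lost without the first cadmium testes sample (2.49, edgeR adjusted p 0.0719). With no filter Gja1 was tested too, at 0 in both sperm pools, and its adjusted p was 0.0426, lower in sperm.

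**Figure D3:**
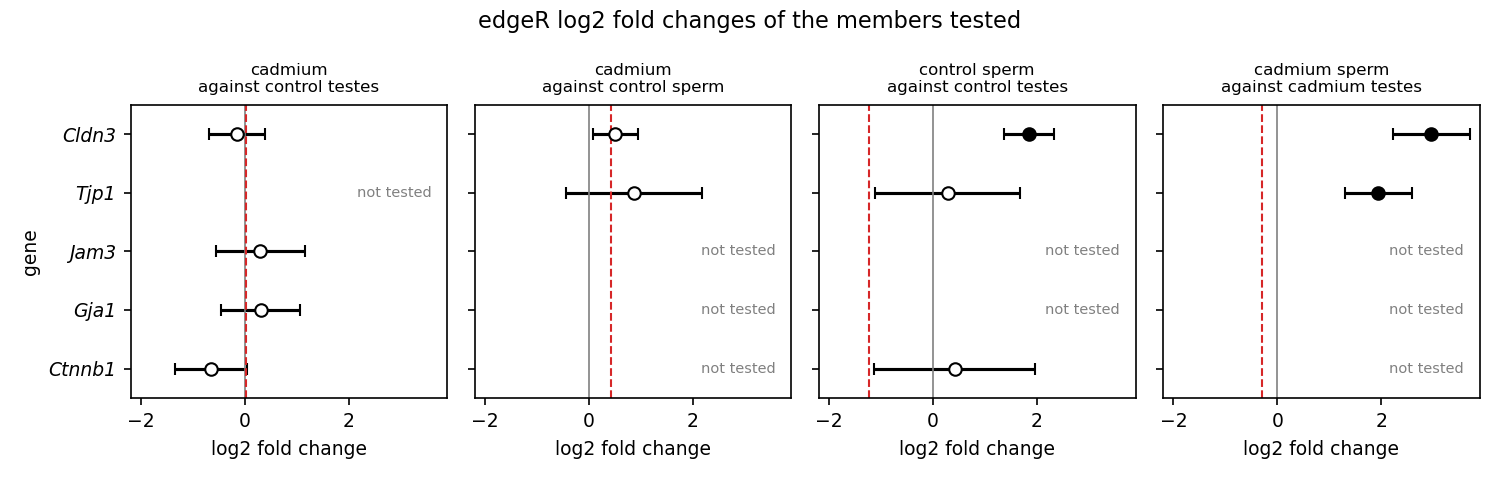
Log2 fold changes from edgeR (points) with their standard errors (bars) for the 5 members tested in any of 4 comparisons, filled where called, with the median over all genes as a dashed red line and 0 as a grey line. Cldn3 in both sperm against testes comparisons and Tjp1 in cadmium mice are the filled points, and no point is filled for cadmium against control.

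Among 98 other genes of the barrier, in lists of tight junctions, adherens junctions, gap junctions and desmosomes, the ectoplasmic specialization, and regulators, 87 were listed. None was called for cadmium in testes (21 tested), for cadmium in sperm (22 tested) or for the difference of these effects (31 tested) by edgeR, and none of them had an unadjusted p under 0.05 there. Ybx3, the ZONAB protein that binds ZO-1 and also an RNA-binding protein of germ cells, was the highest of the 87 in all groups, at 53.9 ± 40.4 FPKM (SD, n = 2) in control testes and 9.17 ± 9.11 FPKM (SD, n = 3) in control sperm. Cldn3 stood above it by FPKM in every group, and Ybx3 went the other way between the tissues. Its log2 fold change, sperm over testes, was -2.81 (edgeR adjusted p 0.0365) in controls and -2.08 (edgeR adjusted p 0.00169) in cadmium mice.

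In control mice 23 of these 98 genes were tested between sperm and testes, of which 1 was called higher in sperm and 4 lower, against the 22% of all genes called in either direction and 4.19% called higher. The share of the lists was near that background and is no result about junction genes. Ybx3 reached 1 FPKM in 2 or more samples of both tissues, whereas the other 4 passed the filter only through the tissue where they were higher. The 4 called lower in sperm were Ybx3, the connexin gene Gja5 and the cytokine genes Il1a and Il1b, which loosen the barrier. Gja5 was at 0 in the 3 sperm pools and 11.8 CPM in testes, with an edgeR adjusted p of 0.0465. Il1a was at 0.630 CPM in sperm and 20.1 CPM in testes, with an edgeR adjusted p of 0.0484. Il1b was at 0 in the sperm pools and 4.85 CPM in testes. The higher one was Zyx, the gene of a focal adhesion protein, with 7, 0 and 6 counts in the 3 sperm pools and 0 in both testes samples. It lay outside the rule for named genes, since its samples overlapped at 0, and was named after its values were seen.

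In cadmium mice 21 were tested, 5 were called higher in sperm and 3 lower, against the 31.7% of all genes in either direction and 16.3% called higher, which is again close to the background. Higher without overlap were the integrin gene Itgb1 (24.6 against 8.24 CPM), the actin crosslinker Actn4 (7.48 against 1.60 CPM), the tight junction gene Marveld3 (2.86 against 0.360 CPM) and the barrier regulator Tgfb3 (10.4 against 3.37 CPM). Of these 4, Itgb1 alone passed the filter without the sperm pools. Gjd3 was also called, with overlapping samples, and was named after its values were seen. Lower were Ybx3, Gja5 (0.797 against 10.5 CPM) and the desmosomal plakin Dsp (7.01 against 25.9 CPM), with edgeR adjusted p of 0.0110 for Gja5 and 0.0434 for Dsp. Gja5 and Dsp passed only through the testes samples. No gene of these lists came near the level of Cldn3 in sperm, where the next of them, Ybx3, had 12.9 ± 4.69 FPKM (SD, n = 2) against 2705 ± 275 FPKM (SD, n = 2).

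**Figure D4:**
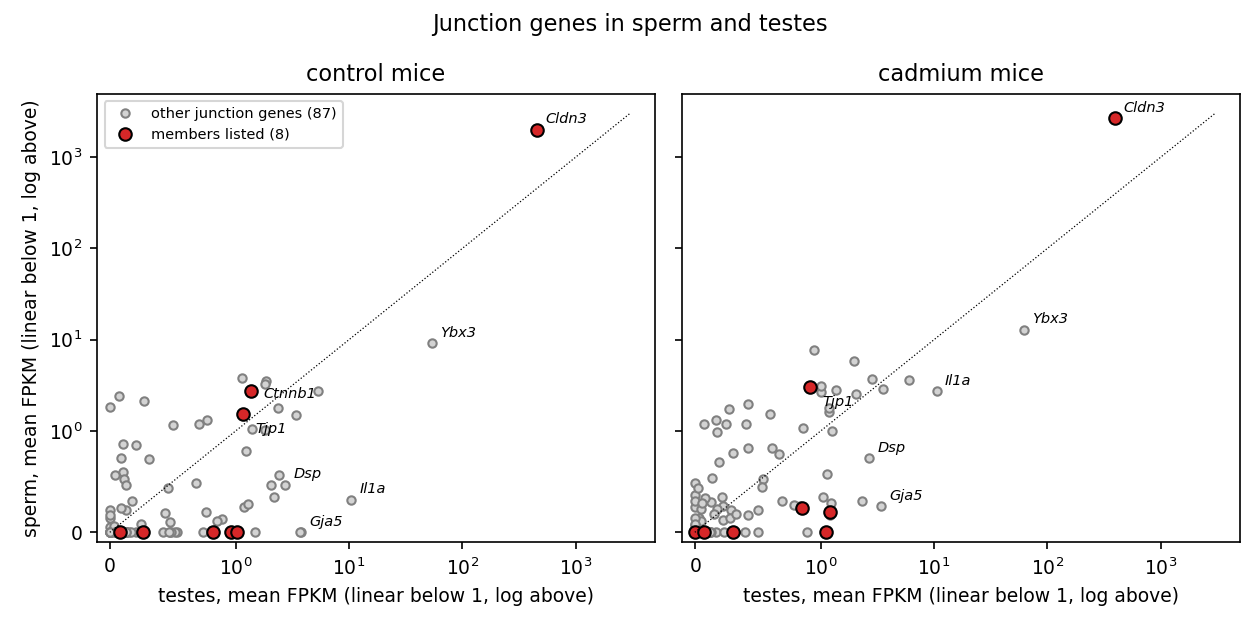
Mean FPKM of 95 listed junction genes in testes (horizontal axis) and sperm (vertical axis) of control mice (left) and cadmium mice (right), on axes that are linear below 1 and logarithmic above, with the 8 listed members in red, 87 other junction genes in grey and a dotted line of equal level. Cldn3 stands alone at the upper right above the line, at 460 and 2014 FPKM in controls, and Ybx3 lies below the line.

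By the rule for likeness, the 5 genes whose log2(FPKM + 1) differed least from that of Cldn11 over the 10 samples, among 3184 NM_ genes with at least 1 FPKM in each testes sample, were Hbp1, Zfp91, Card14, Hnrnpf and Yod1. The root mean square difference, after centring each gene on its mean, was 0.29 to 0.39. Cldn11 was at 0 in 8 of the 10 samples, and a gene at a constant level would score 0.36, so none was shown to follow Cldn11. Their levels were not constant, and Hbp1, the nearest, ranged from 23.3 to 57.6 FPKM. The 5 nearest to Cldn3, chosen after its values were seen, were Atp5f1, Sart1, Tle3, Samd14 and Scrt1, at 0.24 to 0.31 over 3183 genes, where a constant gene would score 1.21. Atp5f1, a subunit of the mitochondrial ATP synthase, had 44.1 to 78.5 FPKM in sperm and 9.23 to 12.3 FPKM in testes. Points of 1 sample share its library and depth, and the likeness was not tested.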

How the data were processed

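Total RNA was depleted of ribosomal RNA and sequenced from both ends. The authors removed adaptors and low-quality reads and, per their methods, aligned with SOAPaligner/SOAP2, while the submitters' processing notes name HISAT and mm10. The tool that estimated the counts is not given in the sources used here. The authors deposited, for each transcript, an expected count, which is an estimate with no normalization. The deposited FPKM divides this by the length of the transcript and the size of the library. A transcript not listed in a sample was taken as 0.

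Values were summed by gene, separately for NM_ transcripts and all others, and counts were rounded. NONCODE and predicted transcripts carry no gene symbol, so those lying over a member were not assigned to it. The quasi-likelihood test of edgeR 4.0.16 (R 4.3.3, TMM) was run on genes of all classes that reached 1 FPKM in 2 or more samples of a comparison, and p-values were adjusted by Benjamini-Hochberg over all of them. The SE is the log2 fold change divided by the square root of F. The first control sperm pool was left out, as by the authors. limma 3.58.1 on log2(FPKM + 1), DESeq2 1.42.0 and other filters, scalings and sets of samples were alternatives. The scripts were tested on simulated data. Replicates of a group differed by more than sampling noise. CPM is counts per 1000000 of all expected counts of a sample, whose total sets the precision, and intervals are exact 95% Poisson intervals. Positions and promoters come from RefSeq for GRCm38.p6, matched by symbol, and figures were drawn with matplotlib 3.10.9. The members and lists were chosen with earlier results of these data known. The text names all members, junction genes called within a tissue, the 2 largest rises and falls of each list between tissues among called genes without overlap, and the 5 genes nearest to Cldn11, and says where others were chosen after their values were seen.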

Additional observations from a re-analysis of the deposited data

Results flagged for a closer look

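Ctnnb1 in control sperm had 1 pool far from the others: the third pool was at 27.3 CPM (10 counts of a total of 366455), against 0 CPM in the first pool and the fourth and 1.89 CPM (2 counts) in the second. Its gap to the nearest pool exceeded the 95% critical value of Dixon's test for 4 samples. That value assumes normal data, which counts of 0 to 10 at unlike depths are not, so no chance rate is given. The rule was applied to every member. The other groups had fewer than 4 samples and were not examined this way.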

How the results depend on the processing

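The call of Cldn3 between sperm and testes held under every alternative that left out no sample by turn, at 1.65 to 2.16 on the log2 scale in controls and 2.60 to 3.01 in cadmium mice, and was lost in controls without the second or the fourth sperm pool and in cadmium mice without the first testes sample. Leaving out 1 sample at a time, the members called ranged from 0 to 1 in controls and from 0 to 1 in cadmium mice, and from 0 to 0 in the other comparisons. In cadmium mice 1 member, Cldn3, was called in place of 2 in limma with a pseudocount of 1 or 0.1, with library totals and in 1 model over the 9 samples, since Tjp1 was lost there. Some weak log2 fold changes turned. For cadmium in testes, leaving out a sample gave -0.51 to 0.34 for Cldn3, -0.11 to 0.76 for Gja1 and -0.019 to 0.59 for Jam3. For cadmium in sperm, Tjp1 was at -0.064 with the replicate number as a block. In fits with control sperm this block used the first and second control pools only, so the samples changed as well as the model. Between control sperm and testes, Ctnnb1 was at -0.011 and -0.92 in limma (pseudocounts 1 and 0.1), -0.082 with NM_ genes only, -2.32 with the replicate block and -1.85 to 0.91 without 1 sample, and Tjp1 at -0.69 to 0.96 without 1 sample. For the difference of the cadmium effects, leaving out a sample gave -3.04 to 0.057 for Ctnnb1, -0.82 to 0.13 for Gja1 and -0.30 to 3.53 for Jam3. The causes were not tested.

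Over all genes, the number called for cadmium in testes (6) was 0 in both limma fits, with library totals and with NM_ genes only, 3 in 1 model over the 9 samples, 88 with no filter and 89 with the replicate block, and 4 to 29 without 1 sample. For cadmium in sperm (17) it was 11 in DESeq2, 0 and 1168 in limma (pseudocounts 1 and 0.1), 9 with RLE size factors, 3 with NM_ genes only and 7 to 42 without 1 sample. For control sperm against testes (5373) it was 3315 in DESeq2, 2734 with library totals, 1344 with no filter, 2610 with a mean of at least 1 FPKM, 1215 with NM_ genes only and 880 to 4335 without 1 sample. With the replicate block it was 1201, in a fit whose control sperm were the first and second pools only. For cadmium sperm against testes (8168) it was 5089 in DESeq2, 2295 with NM_ genes only, 4272 in the model over 9 samples and 1619 to 5255 without 1 sample. For the difference of the cadmium effects (13) it was 0 in DESeq2, in both limma fits and with NM_ genes only, 3 with RLE size factors or library totals, 1 with a mean of at least 1 FPKM and 0 to 26 without 1 sample. The calls higher and lower in control sperm were 1024 and 4349 in the main test and 1065 and 1669 with library totals, and those in cadmium sperm against control sperm were 10 and 7, or 4 and 5 with RLE size factors.

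Samples share a replicate number between groups, but no source ties a numbered sample to another. Control testes came from the mice of the control sperm, yet 2 testes samples stand against 4 pools of sperm with no statement of which belongs to which, so the numbers were not taken as pairs. The correlation of the deviations of same-numbered samples was 0.45 for the testes, -0.04 for the sperm, -0.06 between control tissues and 0.09 between cadmium tissues, and the replicate block changed no call of a member. The depth of 366455 to 2866856 counts per sample limits every member except Cldn3.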
